A study of Mus musculus with 8 samples.

Results

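The 5 genes described here act in endothelial cells or on them: the apelin receptor gene Aplnr, the vesicle diaphragm gene Plvap, the guidance receptor gene Robo4, the Notch ligand gene Dll4 and the growth factor gene Vegfa. They were chosen by symbol, and each matched 1 of the 1329 genes of the expression table. Poly-A RNA of the ascending aorta was sequenced in 8 libraries from mice homozygous for the mgR allele of Fbn1 (Fbn1mgR/mgR), a hypomorphic allele used to model Marfan syndrome, in which the microfibril protein fibrillin-1 is underexpressed. In 4 libraries the mice had been given DT-061, a small molecule that activates protein phosphatase 2A, by mouth at 5 mg/kg 2 times a day from the age of 5 weeks for 4 weeks. In the other 4, mice of the same genotype had been given the vehicle solution on the same schedule. Both groups therefore carry the Fbn1 defect, and no library from mice with normal Fbn1 was analysed here. No label says that each library came from a separate mouse, so the tests below measure the spread between these libraries, which may in part be technical.

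The lining of a vessel is a sheet of endothelial cells, and new vessels sprout from it under the pull of vascular endothelial growth factor A, the product of Vegfa, which many cell types of the vessel wall secrete. At the front of a sprout, tip cells display Dll4 and thereby hold back their neighbours through Notch. Aplnr is the G protein-coupled receptor for apelin, Robo4 is an endothelial receptor of the roundabout family known for stabilising vessels, and Plvap forms the diaphragms that span endothelial caveolae and fenestrae. In large arteries such genes are read from the luminal lining and from the small vessels of the outer wall.

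The table gives FPKM, fragments scaled to gene length and to the library's fragments, and the submitters named it a table of significant genes for this very contrast. That the 5 genes differ is therefore in part a property of the table, and the p-values below describe the data and are no independent evidence. Library totals recovered from the FPKM values ranged from 14361864 fragments (library 1) to 15632365 (library 2) with DT-061 and from 14120712 (library 4) to 22197544 (library 2) with vehicle. Of 1328 genes with an annotation, 1325 gave whole fragments in all 8 libraries within 0.03 of a whole number, with each gene's length fitted to that end. This is a fit and no check against annotated lengths. The fitted length was 3699 bases for Aplnr, as annotated, but 3947 for Robo4, against 5302, and 3451 for Vegfa, against 4285. The fragment counts below rest on the fitted lengths. Of 35 listed markers of endothelial identity, 1 (Cyyr1) was in the table. Pecam1, Cdh5, Kdr, Flt1, Tek, Tie1 and Vwf were not analysed here, so the amount of endothelium in each library could not be read from its defining markers. In such bulk tissue, fewer endothelial cells and less RNA per cell cannot be told apart.

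All 5 genes were lower in the DT-061 aortas. Aplnr was 5.31-fold lower, Robo4 2.76-fold, Dll4 2.51-fold, Plvap 1.88-fold and Vegfa 1.59-fold, as ratios of the group mean FPKM. All 5 fell by limma at an adjusted p under 0.05, where 65.0% of the table fell and 30.4% rose, so that count by itself does not set them apart. The direction held as deposited and in each fit that left out a library. That was nearly fixed beforehand, since the genes were selected on these libraries and their groups were separate or overlapped by 1 pair. However, Vegfa turned to higher when the libraries were brought to 1 common median (the median rescaling). Dll4 turned to higher with quantile normalization, which gives every library the same distribution of values. Both rescalings were set on selected genes only, a limit given below. Treated and vehicle ranges were separate for 3 of the 5 genes (Aplnr, Plvap and Vegfa), as they were for 78.3% of the table. The median change of the 5 was -0.83 on the log2(FPKM + 1) scale, against -0.58 over the table, which includes the genes that rose. Over the genes of the table called lower the median was -0.88, so the 5 did not fall more than lowered genes in general.

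**Figure D1:**
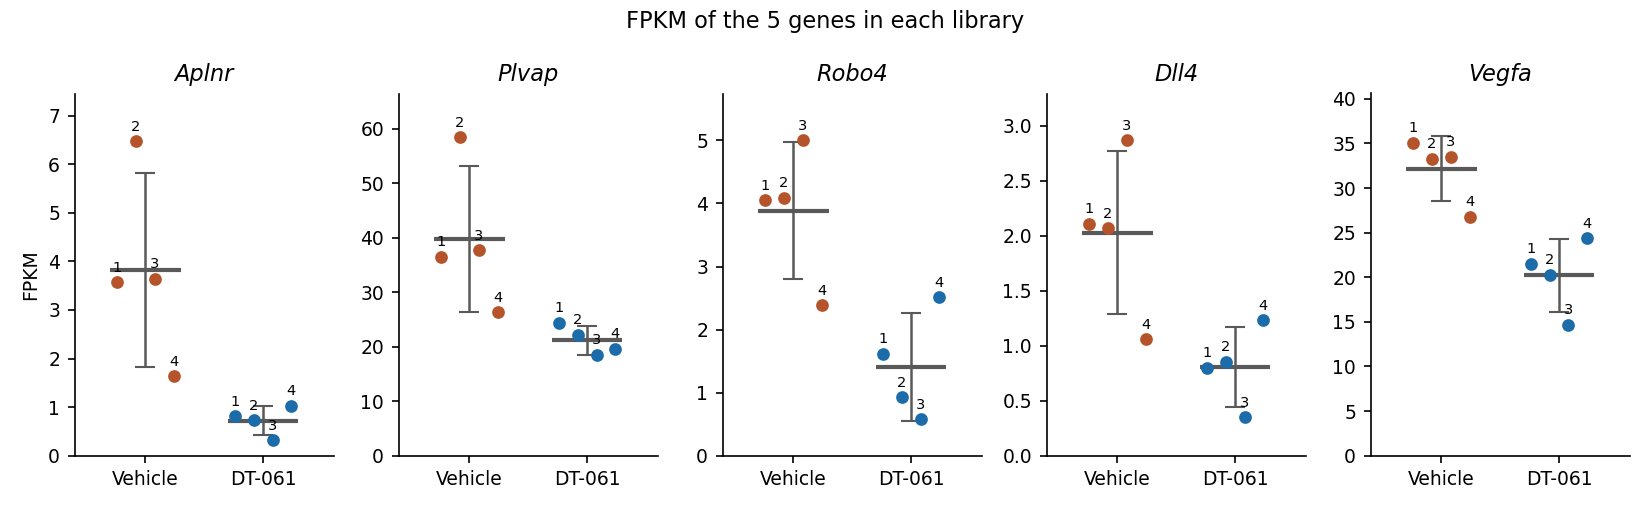
FPKM of Aplnr, Plvap, Robo4, Dll4 and Vegfa (one panel each, y axis in FPKM from 0) in the 4 vehicle (orange) and 4 DT-061 (blue) libraries, with the replicate number beside each point and the mean ± SD in grey. Vehicle library 4 is the lowest of its group and DT-061 library 3 the lowest of its group in all 5 panels, and the groups overlap for Robo4 and Dll4 only.

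Among the receptors, Aplnr (Ensembl ENSMUSG00000044338, GRCm38 chromosome 2, 85136225 to 85139923, plus strand) showed the widest separation. With DT-061 it stood at 0.809, 0.726, 0.317 and 1.03 FPKM in libraries 1 to 4, and with vehicle at 3.57, 6.47, 3.64 and 1.63. All DT-061 libraries were below all vehicle libraries, vehicle library 2 was the highest and vehicle library 4 the closest to the treated ones. The means were 0.720 ± 0.298 and 3.83 ± 1.99 FPKM (SD, n = 4 each), a change of -1.41 ± 0.32 on the log2(FPKM + 1) scale (SE; 95% interval -2.14 to -0.68; limma adjusted p = 0.016). The exact two-sided permutation test over the 8 libraries gave p = 0.0286, the smallest it can give for 4 against 4. These values rest on 43, 42, 17 and 56 fragments with DT-061 and on 214, 531, 235 and 85 with vehicle, and the 17 fragments of DT-061 library 3 have an exact Poisson 95% interval of 9.90 to 27.2, which covers counting error only. Because adding 1 to so low an FPKM shrinks a difference, the change was -2.35 ± 0.50 (SE) on recovered fragments scaled to the library totals with 0.5 added. Its call ended with quantile normalization (-0.52, limma adjusted p = 0.13).

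Robo4 (ENSMUSG00000032125, chromosome 9, 37401897 to 37415115, plus strand) stood at 1.62, 0.924, 0.576 and 2.51 FPKM with DT-061 and at 4.05, 4.09, 5.00 and 2.39 with vehicle. DT-061 library 4 was above vehicle library 4, so the groups overlapped by that 1 pair. The means were 1.41 ± 0.855 and 3.88 ± 1.09 FPKM (SD, n = 4), a change of -1.06 ± 0.29 on the log2(FPKM + 1) scale (SE; limma adjusted p = 0.018; exact permutation p = 0.0571). Behind these values were 33 to 146 fragments with DT-061 and 133 to 358 with vehicle. With the median rescaling Robo4 had -0.51 (limma adjusted p = 0.10) and with quantile normalization -0.17 (0.55), neither past the threshold.

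The Notch ligand gene Dll4 (ENSMUSG00000027314, chromosome 2, 119325784 to 119335962, plus strand) stood at 0.799, 0.854, 0.349 and 1.23 FPKM with DT-061 and at 2.11, 2.07, 2.87 and 1.06 with vehicle. As for Robo4, DT-061 library 4 was above vehicle library 4 and all other pairs were in one order. The means were 0.809 ± 0.362 and 2.03 ± 0.744 FPKM (SD, n = 4), a change of -0.73 ± 0.24 on the log2(FPKM + 1) scale (SE; limma adjusted p = 0.024; exact permutation p = 0.0571). It rests on 19 to 68 fragments with DT-061 and on 56 to 188 with vehicle. The call for Dll4 ended without DT-061 library 3 (limma adjusted p = 0.053), vehicle library 2 (0.051) or vehicle library 3 (0.059), while without vehicle library 4 the change was -0.90 (0.0073). It ended with the median rescaling (-0.29, limma adjusted p = 0.26), and with quantile normalization the change was 0.20 (0.37).

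Plvap (ENSMUSG00000034845, chromosome 8, 71497765 to 71511752, minus strand), the structural gene of the set, stood at 24.4, 22.2, 18.5 and 19.6 FPKM with DT-061 and at 36.5, 58.4, 37.7 and 26.3 with vehicle. The treated libraries lay close together and below all vehicle libraries, while vehicle library 2 stood above the other 3. The means were 21.2 ± 2.63 and 39.7 ± 13.5 FPKM (SD, n = 4), a change of -0.83 ± 0.22 (SE; limma adjusted p = 0.018; exact permutation p = 0.0286). Counting noise was small, with 542 to 706 fragments with DT-061 and 749 to 2613 with vehicle. Without vehicle library 2 the change was -0.63 (limma adjusted p = 0.030). With the median rescaling it was -0.01 (0.99), so the call ended, and with quantile normalization it was -0.71 (0.022).

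The ligand gene Vegfa (ENSMUSG00000023951, chromosome 17, 46016993 to 46032369, minus strand) stood at 21.5, 20.3, 14.7 and 24.4 FPKM with DT-061 and at 35.1, 33.3, 33.5 and 26.8 with vehicle. Vehicle libraries 1 to 3 were nearly level, and the groups did not overlap. The means were 20.2 ± 4.07 and 32.2 ± 3.67 FPKM (SD, n = 4), a change of -0.66 ± 0.16 (SE; limma adjusted p = 0.016; exact permutation p = 0.0286). It had 737 to 1241 fragments with DT-061 and 1306 to 2550 with vehicle. With quantile normalization it was -0.52 (limma adjusted p = 0.024), and with the median rescaling it turned to 0.16 (0.48).

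Several of these values depend on how the libraries are scaled to each other, which the table cannot settle, since it holds selected genes only. Both rescalings take out any shift common to most of the table, of which 65.0% fell and 30.4% rose. A change shared by many of these genes would thus be removed together with a difference in scale. The median rescaling shifted changes by a median of 0.69 and quantile normalization by 0.56 on the log2 scale. Of the calls, 31.9% were rises as deposited, 59.2% with the median rescaling and 65.3% with quantile normalization. Relative to the shifted table, 1 of the 5 genes fell with the median rescaling (Aplnr) and 2 with quantile normalization (Plvap and Vegfa). With both DT-061 library 3 and vehicle library 4 left out, all 5 fell, with changes of -1.55 for Aplnr, -0.94 for Plvap, -1.04 for Robo4, -0.77 for Dll4 and -0.60 for Vegfa. These libraries were the lowest of their groups for all 5 genes and were chosen with earlier results known. Leaving them out narrows the spread within the groups, so this fit is no independent check.

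**Figure D2:**
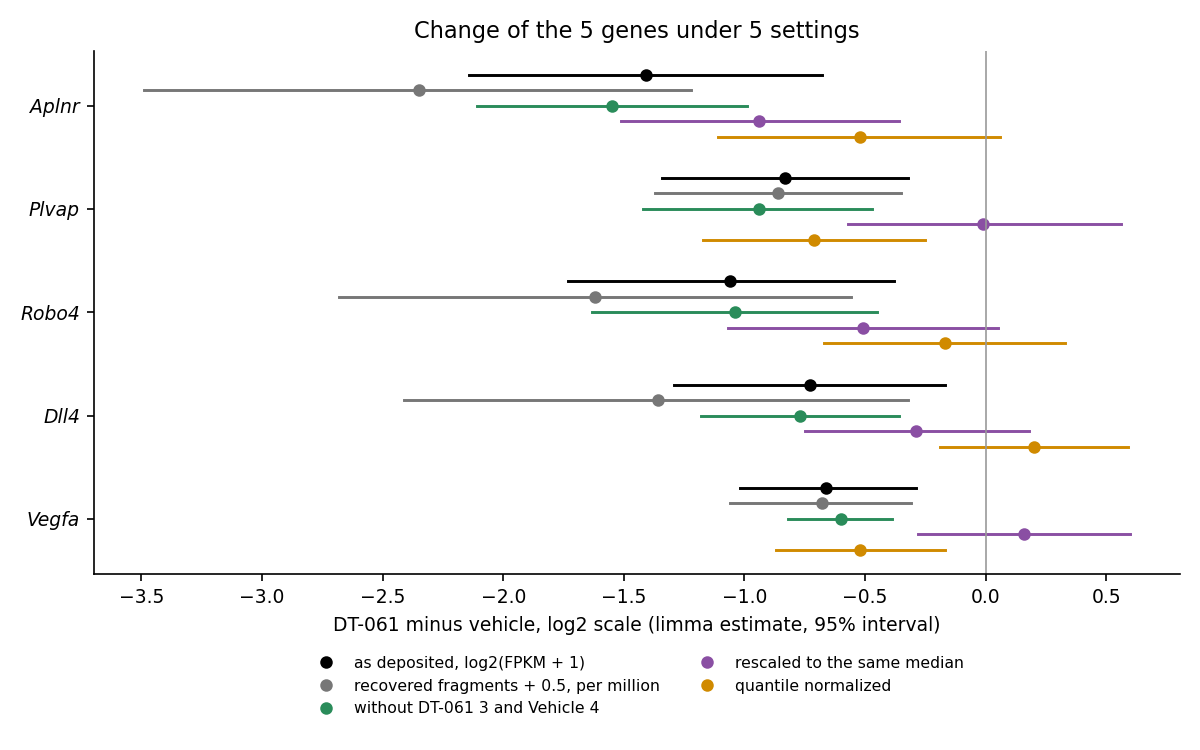
Change of each gene (DT-061 minus vehicle, x axis on the log2 scale, with the limma 95% interval) as deposited, on recovered fragments, without DT-061 library 3 and vehicle library 4, and with both rescalings. The estimates of the first 3 settings lie below 0 for every gene, while Vegfa crosses to 0.16 with the median rescaling and Dll4 to 0.20 with quantile normalization.

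FPKM is per length, so levels can be compared between genes. Plvap and Vegfa were the abundant members, at means of 39.7 and 32.2 FPKM with vehicle and 21.2 and 20.2 with DT-061, and the ranges of this pair overlapped in both groups. They stood apart from the other 3 in every library. With vehicle, Robo4 (3.88) and Aplnr (3.83) did not differ beyond their spread, and Dll4 (2.03) was below Aplnr in 4 of 4 libraries with overlapping ranges. With DT-061 the order was Robo4 (1.41), Dll4 (0.809) and Aplnr (0.720), with overlapping ranges for both neighbouring pairs.

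Ratios within a library were compared because any factor common to a library cancels in them, as it does for the median rescaling but not for quantile normalization. With quantile normalization the change of Aplnr (-0.52) was no larger than those of Vegfa (-0.52) and Plvap (-0.71). Aplnr amounted to 10.2%, 19.4%, 10.9% and 6.07% of the Vegfa FPKM in vehicle libraries 1 to 4 and to 3.76%, 3.58%, 2.15% and 4.21% in DT-061 libraries 1 to 4. The groups did not overlap, and the log2 ratio changed by -1.69 with DT-061. Against Plvap, Aplnr stood at 9.17% ± 2.09 with vehicle and 3.39% ± 1.45 with DT-061 (SD, n = 4), again with no overlap. Dll4 was 58.8% ± 19.7 of Aplnr with vehicle and 112% ± 9.51 with DT-061, without overlap. In contrast Vegfa was 85.9% ± 20.0 of Plvap with vehicle and 95.9% ± 19.7 with DT-061, with overlapping groups. Of the 10 pairs of members, these 3 with Aplnr were the ones whose groups did not overlap, each at an exact permutation p of 0.0286. With Benjamini-Hochberg adjustment over the 10 pairs the exact permutation p was 0.0953, and 0 of 10 passed 0.05, against 3 of 10 before adjustment. With 4 against 4 libraries, passing would have needed more of the pairs to separate.

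**Figure D3:**
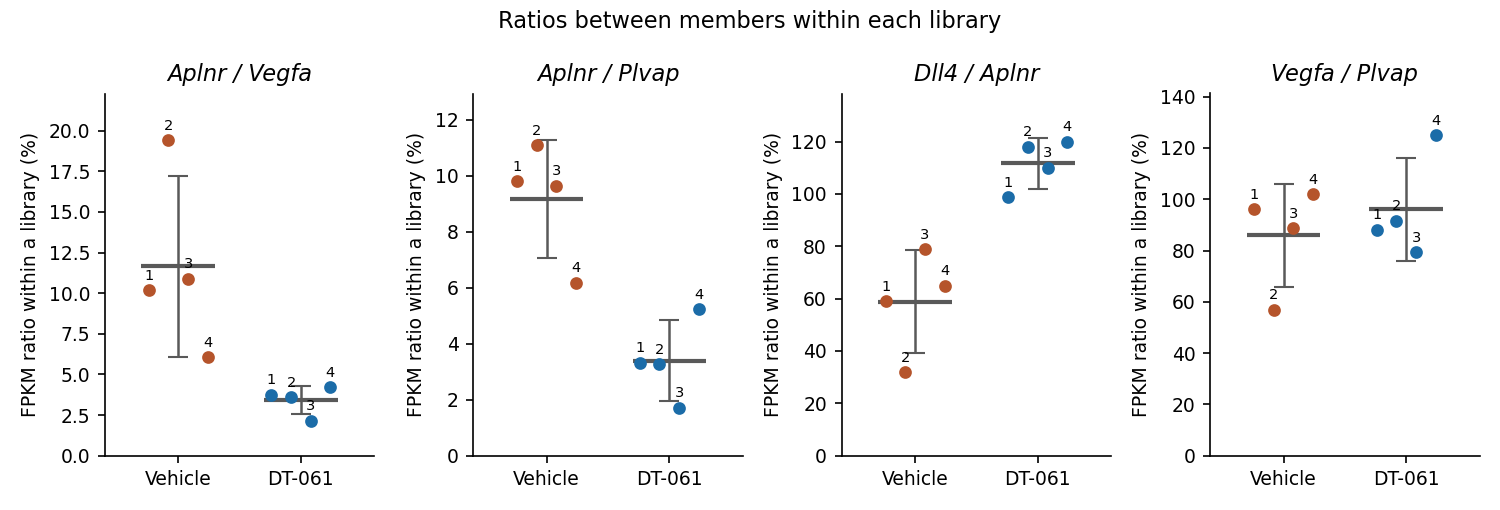
FPKM ratios within each library in percent (y axis from 0) for Aplnr to Vegfa, Aplnr to Plvap, Dll4 to Aplnr and Vegfa to Plvap, with replicate numbers beside the points and the mean ± SD in grey. The first 3 panels show groups that do not overlap, and the last shows overlapping groups.

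Within each group, the 5 genes had their lowest value in the same library. DT-061 library 3 was the lowest treated library for all 5 and vehicle library 4 the lowest vehicle library for all 5. These minima were not particular to the 5, since the summed markers of several other cell types, given below, had them too. The share of the whole table with the same minima was not counted. Vehicle library 4 held 35.7% of the mean of the other vehicle libraries for Aplnr, 45.0% for Dll4, 54.5% for Robo4, 59.5% for Plvap and 78.9% for Vegfa. DT-061 library 3 held 34.2% of the mean of its group's other libraries for Robo4, 36.3% for Dll4, 37.0% for Aplnr, 66.6% for Vegfa and 84.0% for Plvap. As deviations of log2(FPKM + 1) from the group means over the 8 libraries, Aplnr and Plvap had a Pearson r of 0.91. Robo4 had 0.90 with Dll4 and 0.90 with Vegfa, and Dll4 had 0.86 with Vegfa. Aplnr lay between, with 0.67 for Robo4, 0.72 for Dll4 and 0.69 for Vegfa, while Plvap with these 3 gave 0.39 to 0.47. The points share libraries and depth, and these values are a description.

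The same 2 libraries were also low in markers of immune cells, fibroblasts and adipocytes. The counts that follow come from a table of which 65.0% fell and 30.4% rose. Of 17 monocyte and macrophage markers, 5 were in the table and all 5 fell, and their summed level was 14.3 to 77.0 FPKM with DT-061 and 87.1 to 389 with vehicle. DT-061 library 3 (14.3) and vehicle library 4 (87.1) held the lowest sums of their groups. Of 17 T and NK cell markers, 14 were in the table, of which 13 fell and 1 did not pass, and their sum was 3.63 to 10.3 FPKM against 8.11 (vehicle library 4) to 92.9. Of 9 dendritic cell markers, 6 were in the table and fell (3.32 to 11.4 against 13.1 to 42.3 FPKM), with Xcr1 listed at 0 in 1 or more libraries. Of 16 contractile smooth muscle markers, 9 were in the table and all rose, with sums of 16691 to 25277 FPKM against 9202 to 14442 and the highest in DT-061 library 3. The fibroblast, B and plasma cell, and neutrophil and mast cell markers in the table (3 of 14, 4 of 11 and 3 of 11) all fell too, and each sum was lowest in DT-061 library 3 and, within the vehicle group, in vehicle library 4. These sums were 84.8 to 155 against 221 to 361 FPKM for fibroblasts, 67.0 to 100 against 133 to 1076 for B and plasma cells, and 0.569 to 2.46 against 1.46 to 24.8 for neutrophils and mast cells, with S100a9 listed at 0 in 1 or more libraries. Of 9 adipocyte markers 1 was in the table and fell (1.69 to 5.81 against 8.70 to 25.1 FPKM), with the lowest values in the same 2 libraries. Proliferation markers did not follow this order within the vehicle group, since the sum of 8 of 17 was highest in vehicle library 4 (49.6 FPKM, against 19.1 in the lowest). The part of these cell types in the changes of the 5 genes was not tested. Leaving out both libraries does not remove the difference in these markers: the lowest macrophage sum was then 217 FPKM with vehicle, above the highest of 77.0 with DT-061.

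The 3 genes whose deviations were most like those of each member were drawn from 1009 genes whose mean FPKM reached 1. For Aplnr they were the apolipoprotein gene Apod, the myeloid lectin gene Clec4d and Plvap (r = 0.91 each). For Plvap they were Aplnr (0.91), Ssc5d (0.88) and Smg6 (0.87), a gene of nonsense-mediated decay that measured 12.3 ± 0.118 FPKM in treated and 10.7 ± 0.364 in vehicle libraries (SD, n = 4). Its change of 0.19 lost its call in 7 of 8 fits that left out a library (all but that without DT-061 library 3). For Robo4 they were the chondroitin sulfotransferase gene Chst11 (0.94), the semaphorin gene Sema7a (0.93) and Tmed5 (0.93). For Dll4 they were the apolipoprotein gene Apoe (0.96), Tmed5 (0.96) and the transcription factor gene Runx2 (0.95). For Vegfa they were Plbd1, the annexin gene Anxa8 and Milr1 (0.98 each). Plbd1 spanned 0.603 FPKM in DT-061 library 3 to 30.5 in vehicle library 1, a wider range than Vegfa itself. All r are over 8 libraries and describe only which libraries were high or low. Runx2 turned to higher with quantile normalization (0.31), as Tmed5 did with the median rescaling (0.04).

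Promoter windows of Robo4, Dll4 and Vegfa are shown, the 3 of the 5 genes matched in the RefSeq table, to set their letters beside the values. The windows are RefSeq sequence on GRCm38.p6 before each gene's first start site, ended before any annotated exon, and printed 5′ to 3′ on the gene's strand. Capitals mark matches to 7 motifs searched on both strands: ACGTG and its variant form GCGTG for the core of the hypoxia response element, CGGAAG for ETS factors, TGGGAA for RBPJ, the DNA partner of Notch, AGATAA for GATA factors, TGANTCA for AP-1, and the TATA box TATAAA. A match on the other strand appears as its reverse complement, and no letters are shared between matches.
Robo4, chr9:37401722-37401896, plus strand: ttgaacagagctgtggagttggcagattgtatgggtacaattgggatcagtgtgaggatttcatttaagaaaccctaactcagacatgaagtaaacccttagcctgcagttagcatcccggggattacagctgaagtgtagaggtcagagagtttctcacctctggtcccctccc
Dll4, chr2:119325534-119325783, plus strand: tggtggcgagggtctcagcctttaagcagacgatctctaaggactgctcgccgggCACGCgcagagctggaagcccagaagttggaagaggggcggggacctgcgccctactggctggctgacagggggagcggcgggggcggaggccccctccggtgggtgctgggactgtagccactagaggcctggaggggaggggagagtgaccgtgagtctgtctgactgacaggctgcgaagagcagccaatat
Vegfa, chr17:46032378-46032627, minus strand: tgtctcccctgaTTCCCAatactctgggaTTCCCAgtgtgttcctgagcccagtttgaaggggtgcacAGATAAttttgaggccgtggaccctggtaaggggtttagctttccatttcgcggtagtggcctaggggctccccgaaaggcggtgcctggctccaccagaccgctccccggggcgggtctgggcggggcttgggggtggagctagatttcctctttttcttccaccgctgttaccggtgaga
The Robo4 window of 175 bases held none of the 7 motifs. The Dll4 window held GCGTG in 1 place, 195 bases before the start site, a motif found in 28.2% of the 32851 promoter windows of that length. The Vegfa window held TGGGAA in 2 places, 238 and 221 bases before the start (21.6% of windows hold it), and AGATAA in 1 place, at 182 bases (9.99%). Dll4 and Vegfa were rich in G and C, at 65.6% and 59.2% against a median of 52.4%, and Robo4 was at 47.4% against 51.4% for its shorter window. These are letter matches. The Dll4 and Vegfa windows had none of the 7 motifs in common, and the Robo4 window, which held none, could share none.

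Around the 5 genes, 14 lists of endothelial, angiogenic, Notch, hypoxia, lymphatic and pericyte genes named 231 other genes, of which 22 were in the table. Of the 22, 14 fell, 7 rose and 1 did not pass. That 63.6% fell is close to the 65.0% of the whole table, and their median change of -0.52 is close to its -0.58. For 18 of the 22 the ranges were separate (81.8%, against 78.3%). With the median rescaling 4 of the 22 fell, and with quantile normalization 4.

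In the apelin system, the gene of the ligand, Apln, was the 1 of 4 listed genes in the table. Apln stood at 0.265, 0.386, 0.0875 and 0.237 FPKM with DT-061 and at 1.33, 0.672, 1.38 and 0.270 with vehicle. Vehicle library 4 lay among the treated libraries, so the groups overlapped. It fell by 0.58 on the log2(FPKM + 1) scale (limma adjusted p = 0.030; exact permutation p = 0.0571) but lost its call in 5 of the 8 fits without a library, namely those without DT-061 library 1, 3 and 4 and those lacking vehicle library 1 and 3 (limma adjusted p of 0.056 to 0.074), and turned to 0.13 with quantile normalization. With the median rescaling it was at -0.31 (limma adjusted p = 0.11). Apln was highest in vehicle libraries 1 and 3, while Aplnr was highest in vehicle library 2. At so low an FPKM the order of the Apln libraries is uncertain.

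Of 24 listed genes of Notch signalling beside Dll4, 2 were in the table and moved in opposite directions. Heyl, a transcription factor that Notch induces, averaged 55.7 ± 13.7 FPKM in treated against 27.5 ± 10.4 in vehicle libraries (SD, n = 4) and rose by 1.04 ± 0.28 (SE; limma adjusted p = 0.018). Heyl was highest in DT-061 library 3 (76.1), the treated library where Dll4 was lowest. The contractile smooth muscle sum was highest in that library too (25277 FPKM). This is 1 library, and a link between Heyl and Dll4 was not tested. Bulk tissue does not show which cells the Heyl RNA came from. Adam17, a membrane protease that sheds many ligands and receptors, stood at 11.7 ± 0.530 and 15.4 ± 1.25 FPKM and fell by 0.37, but turned to 0.42 with the median rescaling. Among sprouting genes, 2 of 19 were in the table and fell: Apln and the chemokine receptor gene Cxcr4, which leukocytes also express, with 1.89 ± 1.10 against 9.06 ± 5.46 FPKM (log2 change -1.71 ± 0.46; limma adjusted p = 0.018).

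As deposited, the caveola genes moved opposite to Plvap, which sits in the same membrane structure. Of 18 listed genes of caveolae and junctions, 2 were in the table and both rose. Cav1, the main caveola protein, stood at 266, 219, 238 and 265 FPKM with DT-061 and at 133, 183, 178 and 196 with vehicle, a change of 0.52 ± 0.14 (SE; limma adjusted p = 0.018). Cavin1, its coat protein, stood at 367 ± 22.3 and 254 ± 21.9 FPKM (SD, n = 4) and rose by 0.53 ± 0.10. Smooth muscle also expresses both, and their levels were several times that of Plvap. Both were higher under both rescalings too, while Plvap was at -0.01 with the median rescaling (limma adjusted p = 0.99) and at -0.71 with quantile normalization.

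Among other vascular genes, Ackr1, a chemokine-binding receptor of venular endothelium, averaged 1.5 ± 0.299 FPKM in treated against 4.24 ± 1.03 in vehicle libraries (SD, n = 4) and fell by 1.05 on the log2 scale with no overlap (limma adjusted p = 0.013), but lost its call with the median rescaling (-0.45) and quantile normalization (-0.17). The endothelial gene Cyyr1 stood at 0.285 ± 0.115 and 0.971 ± 0.468 FPKM, fell by 0.59, lost its call with the median rescaling (-0.33) and turned to 0.12 with quantile normalization. Of 30 other growth factor genes, 2 were in the table: Efnb2, the arterial ephrin-B2 gene, rose by 0.53 ± 0.11 (15.1 ± 1.72 against 10.1 ± 0.832 FPKM), and Bmper, an endothelial regulator of bone morphogenetic proteins, fell by 1.27 (1.13 ± 0.642 against 4.02 ± 1.05 FPKM), losing its call with quantile normalization (-0.41). Which cells expressed Efnb2 cannot be read from bulk tissue. Of 18 angiogenesis inhibitors, 3 were in the table. The interferon-induced Cxcl9 fell by 1.62 and Isg15 by 1.41, while the semaphorin gene Sema3f rose by 0.46 ± 0.12 (96.6 ± 2.79 against 70.4 ± 10.9 FPKM). Isg15 lost its call in 6 of the 8 fits without a library (all but those without DT-061 library 4 or vehicle library 4; limma adjusted p up to 0.076), with the median rescaling (-0.62, 0.14) and with quantile normalization (-1.12, 0.060).

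Of 35 genes of the hypoxia response, the program that induces Vegfa when oxygen is low, 7 were in the table. Of these, 5 fell, 1 rose and 1 did not pass, in a table of which 65.0% fell and 30.4% rose. Bhlhe40, a hypoxia-induced transcription factor, averaged 8.71 ± 2.07 FPKM in treated against 26.1 ± 9.79 in vehicle libraries (SD, n = 4), a change of -1.43 ± 0.28 (SE; limma adjusted p = 0.014). With the median rescaling Bhlhe40 was at -0.64 and no longer past the threshold. The glycolysis regulators Pfkfb3 and Pfkfb4 fell by 0.86 and 0.64, the hexokinase gene Hk2 by 0.47 and the glucose transporter gene Slc2a3 by 0.34. Higd1a, a mitochondrial protein gene, rose by 0.44 ± 0.11, and Mxi1 stood at 6.38 ± 0.464 against 5.13 ± 0.604 FPKM (limma adjusted p = 0.057). These directions were not stable to scaling: Pfkfb4 turned to higher with both rescalings (0.06 and 0.04), Hk2 with the median rescaling (0.31) and Slc2a3 with quantile normalization, where it was past the threshold as a rise (0.44, limma adjusted p = 0.024). Pfkfb3 lost its call with both rescalings (-0.07 and -0.54), without vehicle library 2 (limma adjusted p = 0.051) or 3 (0.055). Within the groups, Pfkfb4 and Slc2a3 had the same extremes as Vegfa. Pfkfb4 was lowest in vehicle library 4 (5.13 FPKM) and DT-061 library 3 (2.86) and highest in vehicle library 1 (8.13) and DT-061 library 4 (4.99), and Slc2a3 was lowest at 0.60 and 0.353 FPKM and highest at 0.998 and 0.543 in those same libraries. The other listed hypoxia genes in the table did not share all of these extremes. Pfkfb3 was lowest in DT-061 library 2 (7.11 FPKM) and vehicle library 1 (12.4), and Hk2 in DT-061 library 1 (7.92) and vehicle library 3 (10.3). Higd1a and Mxi1 were both highest in DT-061 library 3. Bhlhe40 had another order, with 30.2 FPKM in vehicle library 4 and its vehicle minimum of 15.9 in library 1. The extremes of Vegfa were not particular to hypoxia genes. Cxcr4, Cxcl9, Isg15, Plbd1 and Milr1 had them in the same libraries, though not all named genes did. The share of the whole table with these extremes was not counted. A link of the hypoxia genes to Vegfa was not tested.

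Of 12 lymphatic endothelial markers, 2 were in the table. Ccl21a, a chemokine of lymphatic vessels with near-identical copies between which reads may be split, averaged 15.2 ± 3.01 FPKM in treated against 58.7 ± 21.4 in vehicle libraries (SD, n = 4) and fell by 1.84 ± 0.24 on the log2 scale (SE; limma adjusted p = 0.012). It stayed lower with both rescalings (-1.03 and -1.70). The integrin gene Itga9, which smooth muscle also expresses, stood at 93.8 ± 17.7 and 64.9 ± 8.24 FPKM and rose by 0.51 ± 0.16, losing its call without DT-061 library 4 (limma adjusted p = 0.052) or library 1 (0.050) and with quantile normalization (0.062). Of the VEGF receptors and other VEGF ligands, the Slit and Robo genes, the angiopoietins with their receptors, and the pericyte markers, 0 were in the table and none was analysed here.

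**Figure D4:**
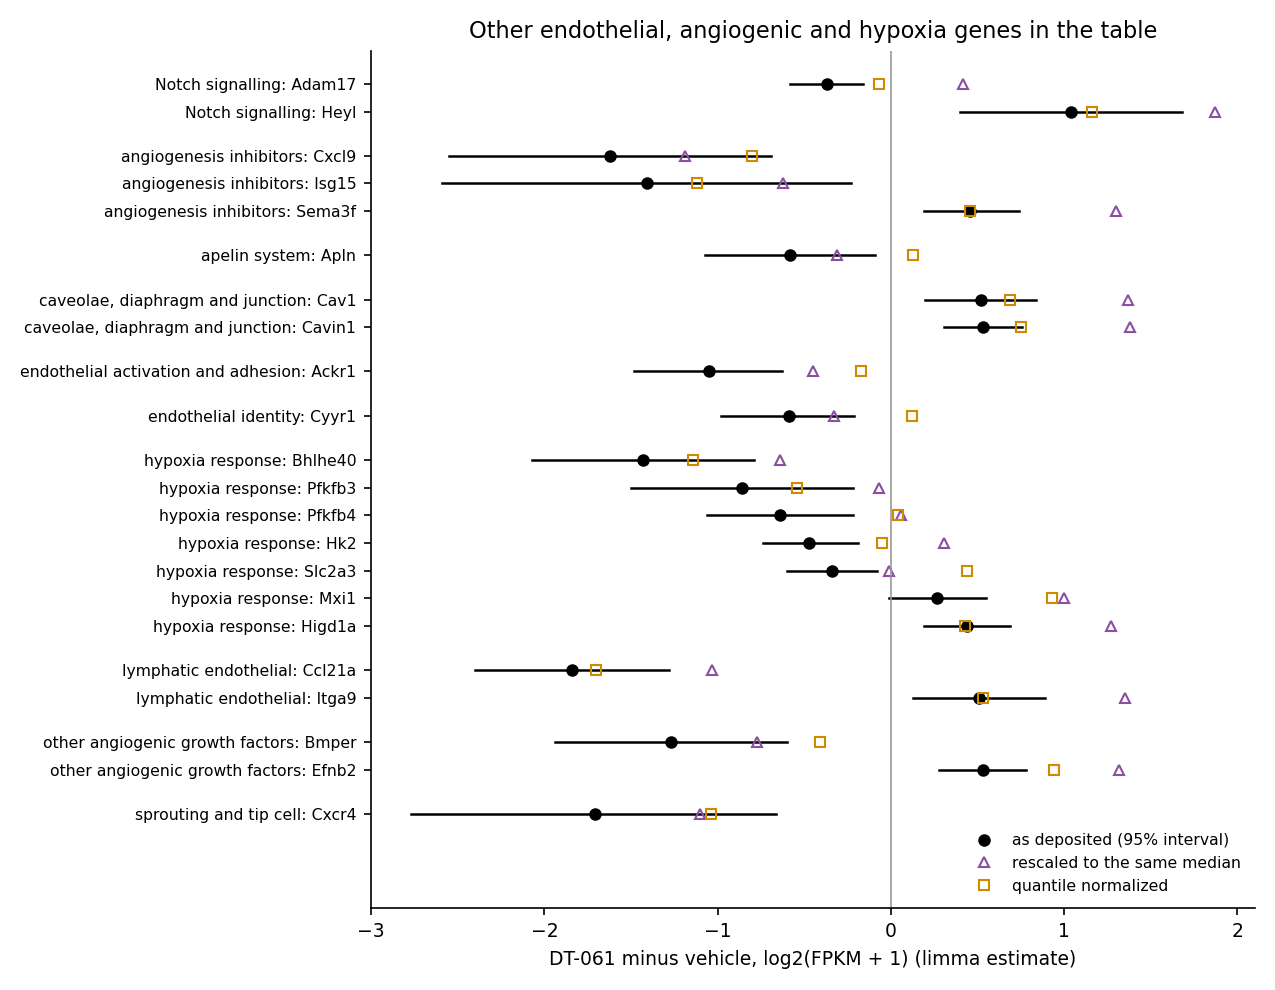
Changes (DT-061 minus vehicle, x axis on the log2(FPKM + 1) scale) of the 22 listed genes in the table, grouped by list, as deposited (black points with the limma 95% interval) and with the median rescaling (purple triangles) and quantile normalization (orange squares). Cav1, Cavin1, Heyl, Sema3f and Efnb2 lie above 0 under all 3, Cxcl9, Cxcr4, Ackr1 and Ccl21a below 0 under all 3, and Adam17, Apln, Cyyr1, Pfkfb4, Hk2 and Slc2a3 change side.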

How the data were processed

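Per the labels' protocols, poly-A libraries were read from both ends on a NovaSeq instrument. The submitters' processing notes name the mm10 build and 3 tools, featureCounts 1.5.0-p3, HISAT2 2.0.5 and StringTie 1.3.3b, without the step each made. The authors deposited FPKM for 1329 genes that, per the table's name, were significant between the groups. The sources used here give neither the threshold nor the strand setting of the counting, so reads of a gene and of one overlapping it cannot be told apart. Symbols were found for 1328 genes, and coordinates came from GENCODE M21 (GRCm38, the same build as mm10).

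Library totals and gene lengths were recovered as the values for which FPKM gives whole fragments. The main test was limma 3.58.1 (trend and robust options, R 4.3.3) on log2(FPKM + 1), with treatment as its single term. P-values were adjusted by Benjamini-Hochberg across all 1329 genes, and a gene is said to rise or fall only at an adjusted p under 0.05. The procedure was also run on simulated data in which most genes did not differ. Most genes of this table were called, so that run does not test the calls given here. An exact permutation test over the 8 libraries stands beside the main test for members.

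Alternatives were a pseudocount of 0.1, a mean FPKM of at least 1, limma without the trend and robust options, libraries rescaled to the same median, quantile normalization, the replicate number as a block, each library left out, and DT-061 library 3 with vehicle library 4 left out. Recovered fragments scaled to the library totals, with 0.5 added, were tried after seeing the data. Named genes are the 5 members, listed genes in the table (the 4 largest changes where a list had more than 5, the other hypoxia genes being named outside this rule), and the 3 genes most like each member. Members, lists and the 2 libraries were chosen with earlier results of these data known. The labels give no batch.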

Additional observations from a re-analysis of the deposited data

Results flagged for a closer look

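Among the 48 sets of 4 libraries tested (the 5 genes and 19 listed genes in each group), 2 had a library far from the other 3, where chance flags about 1 in 20. Heyl stood at 76.1 FPKM in DT-061 library 3, against 47.1 to 51.7 in the other DT-061 libraries. Ackr1 stood at 1.06 FPKM in DT-061 library 4, against 1.60 to 1.68 in the others. None of the 5 members was among them.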

How the results depend on the processing

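The pseudocount of 0.1, the minimum mean FPKM, limma without its options, recovered fragments and the fit without DT-061 library 3 and vehicle library 4 kept the direction and the call of all 5 genes. The last of these left out the lowest library of each group for all 5 genes, so its calls are no independent check. With the median rescaling, Plvap (-0.01), Robo4 (-0.51) and Dll4 (-0.29) lost their calls and Vegfa turned to 0.16, leaving 1 member, 299 genes of the table and 4 listed genes called lower. With quantile normalization, Aplnr (-0.52) and Robo4 (-0.17) lost theirs and Dll4 turned to 0.20, leaving 2 members, 209 genes and 4 listed genes called lower. Named genes that turned direction with the median rescaling were Adam17 (0.42), Pfkfb4 (0.06), Hk2 (0.31) and Tmed5 (0.04), and with quantile normalization Cyyr1 (0.12), Apln (0.13), Pfkfb4 (0.04), Runx2 (0.31) and Slc2a3 (0.44, the 1 of these past the threshold in its new direction). The cause was not tested.

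With 1 library left out, Aplnr ranged from -1.67 to -1.17, Plvap from -1.0 to -0.63, Robo4 from -1.26 to -0.87, Dll4 from -0.90 to -0.60 and Vegfa from -0.75 to -0.52. The members called lower ranged from 4 to 5, the listed genes called lower from 10 to 14 and called higher from 6 to 7. Genes of the table called lower ranged from 652 to 881 and called higher from 254 (without vehicle library 3) to 351, against 404 with all libraries. Fewer libraries leave fewer values to test.

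The replicate numbers showed no clear pairing: deviations of same-numbered libraries correlated at 0.18, -0.11, -0.05 and -0.47, and 1 of 4 correlated best with its own number. With 4 libraries in each group these values cannot exclude a pairing, and the labels state none. With the replicate block, 3 members were called lower, Robo4 (-1.06, limma adjusted p = 0.051) and Dll4 (-0.73, 0.074) were not, and 204 genes were called higher against 404. Among named genes, Apln (0.058), Isg15 (0.056), Slc2a3 (0.074), Runx2 (0.071) and Smg6 (0.15, all limma adjusted p) lost their calls with the block. Depth limits Aplnr and Dll4 most, with 17 and 19 fragments in DT-061 library 3.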
